A study of Rattus norvegicus with 9 samples.

Results

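Vehicle kidneys are the untreated baseline of a study of colistin nephrotoxicity in Sprague-Dawley rats, and 3 of the 9 arrays are vehicle arrays. They were chosen by their label alone, a colistin dose of 0 mg/kg for 7 days, and each array holds the RNA of a different rat. The rats were bought at 8 weeks of age, acclimated for 1 week and given an intraperitoneal injection every day for 7 days. Vehicle rats received no drug, and the labels give saline as the diluent. The other groups received colistin methanesulfonate (CMS), the prodrug of the antibiotic colistin, at 25 mg/kg (CMS25, 3 rats) or 50 mg/kg (CMS50, 3 rats). The labels record tubular injury in treated kidneys, up to necrosis at 50 mg/kg. All arrays were made from the whole right kidney on Affymetrix Rat 230 2.0 arrays, and the sex of the rats is not in the labels used here.

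The nephron filters blood in the glomerulus, whose outer layer is made of podocytes, and then recovers most of the filtrate in the proximal tubule. The thick ascending limb dilutes the urine, the distal convoluted tubule adjusts salt, calcium and magnesium, and the connecting tubule and collecting duct set the final sodium, potassium, water and acid output through principal and intercalated cells. Each segment expresses its own carriers, channels and enzymes, so a profile of whole kidney is a sum over segments. The proximal tubule makes up most of the cortex and runs mainly on mitochondrial metabolism.

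Levels are log2 intensities, so a difference of 1 is 2-fold. Of 14217 genes with exactly 1 symbol, 10241 (72.0%) had a vehicle mean of at least 5, the minimum used here, and the median gene lay at 6.71. Probe sets bind with different affinity, so the order of genes is an order of intensity and not of transcript number. In whole tissue, fewer cells of a type and less RNA per cell cannot be told apart. Pearson correlations between vehicle arrays, across those 10241 genes, lay between 0.985 and 0.989. Vehicle replicate 1 stood apart in more than 1 respect, as also given below. It had 45 genes at least 1 log2 unit above every one of the 8 other arrays, against 3 such genes in replicate 2 and 3 in replicate 3, and many of the 45 are liver genes described below. Among treated arrays, CMS50 replicate 2 had 41 such genes, CMS25 replicate 1 had 18 and the rest had 0 to 4.

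The brightest transcripts included mitochondrial genes and members of the proximal tubule and thick ascending limb lists. COX2, a mitochondrially encoded subunit of cytochrome c oxidase, read 14.73, 14.72 and 14.77 in replicates 1, 2 and 3 and ranked highest. Kap, the kidney androgen-regulated protein, read 14.66, 14.74 and 14.73. COX1, the companion mitochondrial subunit, read 14.70, 14.45 and 14.45. Hao2, a peroxisomal hydroxyacid oxidase, and Miox, which opens the ring of myo-inositol, followed with means of 14.33 and 14.29. Both are proximal tubule enzymes, and their arrays differed by less than 0.1.

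Slc7a13 and Slc3a1 of amino acid transport were among the brightest genes. Slc7a13 read 14.09, 14.36 and 14.16, and Slc3a1 read 14.09, 14.22 and 14.28. The product of Slc3a1 is the heavy chain that carries such amino acid transporters to the brush border. Both were lowest in replicate 1. Slc34a1, the main sodium-phosphate cotransporter of the proximal tubule, read 13.94, 13.70 and 13.81. Enzymes of the same cells included Pck1 of gluconeogenesis at a mean of 13.99, Aadat of tryptophan breakdown at 14.06, Acy1 at 13.65 and the sulfotransferase Sult1c2a at 13.61. Acy1 frees amino acids from their acetylated forms.

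Redox genes formed a further group among the brightest 25. Gpx3, the secreted glutathione peroxidase that the kidney supplies to plasma, read 14.24, 13.97 and 14.12. Gclc, the catalytic subunit of the enzyme that limits glutathione synthesis, read 13.96, 14.08 and 14.18. Selenop, a selenium carrier, had a mean of 13.77 and thioredoxin, Txn1, one of 13.62. The thick ascending limb list held Umod (uromodulin, 13.59, 13.74 and 13.82) and Egf (13.72, 13.31 and 13.71), whose segment of origin whole kidney does not show. Egf was lowest in replicate 2 and Umod in replicate 1.

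The remaining genes of the 25 were Rps29 (ribosomal protein, mean 14.01), Atp5f1b (ATP synthase, 13.96), Tff3 (trefoil peptide, 13.83), Itm2b (membrane protein, 13.72), Atp1b1 (sodium pump beta subunit, 13.64), Cox8a (13.63) and Slc25a5 (mitochondrial ADP/ATP carrier, 13.55). Tff3 had the widest spread of the 25, at 13.56, 13.91 and 14.02. The next gene in order was Eef1a1 at 13.54, only 0.01 below Slc25a5 and well within the spread of either. Across the brightest 100 genes, 14 of 79 measured oxidative phosphorylation subunits and 10 of 48 ribosomal protein genes appeared, and the medians of these families were 11.68 and 12.01. Of the brightest 25 vehicle genes, 23 were also among the brightest 25 of CMS25 and 15 among those of CMS50. Egf and Tff3 were absent from both treated lists, and Umod, Slc7a13 and Gclc from that of CMS50.

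**Figure D1:**
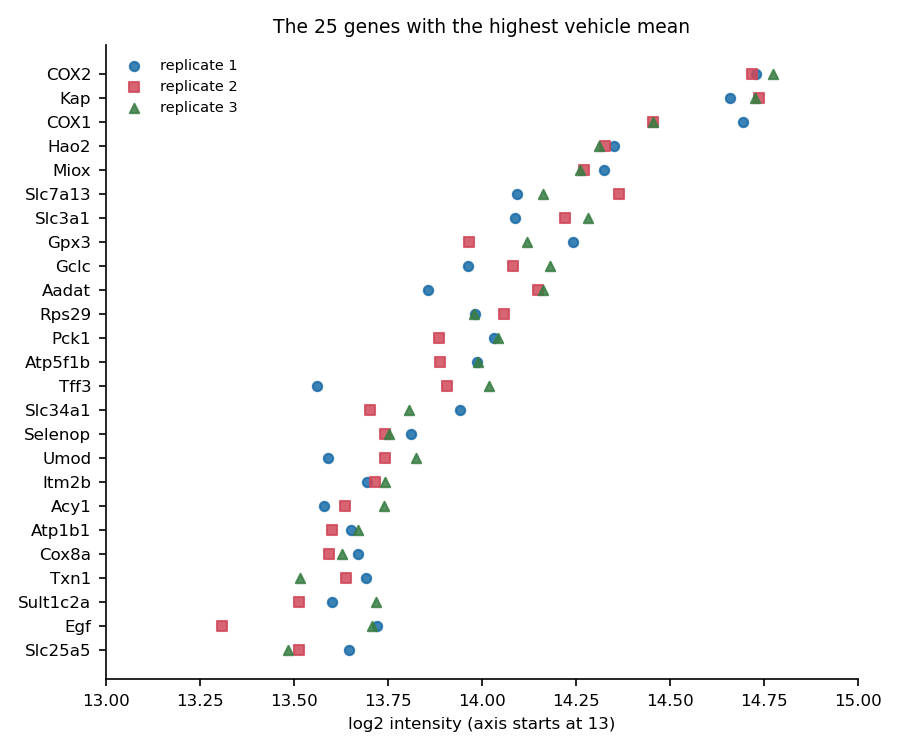
Log2 intensity of the 25 genes with the highest vehicle mean, 1 symbol per vehicle array, on an axis that starts at 13. COX2 lies highest with a mean of 14.74, and the 3 arrays of most genes lie close together, with Tff3 from 13.56 to 14.02 as the widest.

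Nephron segment genes stood in the order of intensity as follows. Of the proximal tubule transport list 34 of 37 genes were measured, 33 reached the minimum of 5, and their median was 10.90 against 6.71 for all genes. Below the carriers already named came Lrp2, the endocytic receptor megalin, at 13.33 ± 0.049 (SD, n = 3). The dimmest were Slc22a7, an organic anion transporter at 7.57, 8.11 and 7.77, and Slc5a1, the glucose transporter SGLT1, at 4.87, 4.77 and 4.67. Slc5a1 was the only member under 5. The list of proximal tubule enzymes and regulators had a median of 11.47 over 25 measured genes, with 23 at 5 or above. Behind Hao2, Miox and Pck1 came Fbp1, also of gluconeogenesis, at a mean of 13.44. Ace read 4.68, 5.14 and 4.95.

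In the thick ascending limb and macula densa list, 14 of 17 measured genes reached 5 and the median was 8.47. Slc12a1, the furosemide-sensitive sodium-potassium-chloride cotransporter, read 12.51, 13.00 and 12.84, and Cldn10, a claudin of sodium-permeable junctions, read 11.13, 11.67 and 11.43. Both were lowest in replicate 1. The dimmest members were macula densa genes, namely Pappa2 at a mean of 4.44 and Nos1, the neuronal nitric oxide synthase, at 3.70. The macula densa is a small patch of cells at each glomerulus.

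In the distal convoluted tubule list, 10 of 12 measured genes reached 5 and the median was 9.02. Fxyd2, the gamma subunit of the sodium pump, had a mean of 12.54, and Calb1, the calcium buffer calbindin, 12.02. The kinase gene Wnk1 had a mean of 11.83. Slc12a3, the thiazide-sensitive cotransporter that defines the segment, read 9.66, 9.13 and 9.82. Trpv5 at 4.76 and Pvalb at 3.56 were the dimmest, although both are commonly used as markers of this region.

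Of 17 measured connecting tubule and principal cell genes 15 reached 5, with a median of 7.28. Klk1, tissue kallikrein, read 12.80, 12.07 and 12.86. Hsd11b2, which shields the mineralocorticoid receptor from corticosterone, read 11.67, 11.11 and 11.67. Both were lowest in replicate 2. The water channel Aqp2 read 10.72, 10.97 and 11.21, and Aqp3 of the basolateral side had a mean of 9.25. Elf5, a transcription factor, lay at 4.51 and Ptger1, a prostaglandin receptor, at 3.82.

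The intercalated cell list had a median of 8.99, and 11 of 13 measured genes reached 5. Carbonic anhydrase II, Car2, had a mean of 12.00, and the proton pump subunits Atp6v1g3 and Atp6v0a4 had means of 11.81 and 11.21. Slc26a4, the chloride-bicarbonate exchanger pendrin, read 9.99, 9.26 and 9.93. Kit and the water channel Aqp6 were below 5. Of the medullary osmolyte list, Slc6a6 for taurine and the tonicity factor Nfat5 both had means of 9.91. Slc5a3, the inositol carrier, had a mean of 9.37, and Akr1b1, aldose reductase, 7.77. In this list 6 of 7 measured genes reached 5.

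Glomerular and vascular genes were of middle intensity. The podocyte list had 11 of 13 measured genes at 5 or above and a median of 7.84. Its brightest members, Cd2ap at 10.24 and Actn4 at 10.23, are cytoskeletal adaptors that other cells express too, followed by Synpo at 9.38 and the cell cycle inhibitor Cdkn1c at 8.80. The defining slit diaphragm gene Nphs1 read 7.91, 7.14 and 8.11. Clic5 at 4.88 and the phospholipase A2 receptor Pla2r1 at 2.75 were the dimmest. Among 15 endothelial genes the median was 7.77, from the glycoprotein Emcn at 9.62 to Flt1 at 4.78. Plat, the tissue plasminogen activator, had a mean of 9.57, the phosphatase gene Ptprb 8.99 and the VEGF receptor Kdr 8.94, while Ehd3 lay at 4.80. The 8 juxtaglomerular and mesangial genes had a median of 6.13, led by the angiotensin receptor Agtr1a at 8.49, Gata3 at 7.95, Gja5 at 6.17 and Serpine2 at 6.14.

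Interstitial and blood cell lists covered a wide range. The fibroblast list had a median of 7.65, with the matrix inhibitor of calcification Mgp at 11.11, Pdgfra at 9.66, Dpt at 8.86 and Dcn at 8.64, and with Lum at 3.30 and Postn at 3.01. Smooth muscle and pericyte genes had a median of 5.80, from Rgs5 at 6.43, Myh11 at 6.38, Tagln at 6.36 and Mcam at 6.08 to Cnn1 at 3.62 and Actg2 at 3.25. Macrophage genes had a median of 5.84. Lyz2, lysozyme, stood far above the rest of them at 11.39, ahead of C1qa at 7.02, Aif1 at 6.52 and Ptprc at 6.41, while Mrc1 lay at 4.29 and Cd163 at 2.79. Only 2 of 13 lymphocyte genes, Lck at 6.12 and Ptprcap at 5.81, and 1 of 10 neutrophil and mast cell genes, Tpsb2 at 5.32, reached 5. Cd2 at 4.94, Cd3e at 4.83, Cd5 at 3.51 and Cd52 at 3.22 did not, nor did Mcpt1 at 4.85, Cpa3 at 3.99, S100a9 at 3.60, Fcer1a at 2.95 and S100a8 at 2.92. Haemoglobin, Hbb, read 12.99, 13.02 and 12.73, and the other red cell genes Alas2, Slc25a37 and Epb42 had means of 6.44, 6.17 and 3.90.

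Genes of tissues next to the kidney gave a scale for a low reading. None of 7 urothelial genes (Upk3a highest at 4.47, then Krt5 at 4.35, Upk2 at 4.12 and Krt20 at 4.06) and none of 5 adrenal genes (Cyp21a1 at 4.77, Star at 4.28, Cyp17a1 at 3.71 and Akr1b7 at 2.83 among them) reached 5. Of 43 genes chosen for other organs, 8 did, and their median was 3.77. Myh1, a skeletal muscle myosin, read 12.08, 12.31 and 12.20, and Cela1, a pancreatic elastase, read 10.62, 10.65 and 10.57. Their SDs were 0.12 and 0.044, and the probe set of Myh1 is of the type that may bind several transcripts. Mbp at 6.66 and Slc6a4 at 5.97 came next, and Prl at 2.67 and Myh4 at 2.55 came last. In the adipose list, 4 of 8 genes reached 5. Cidec had a mean of 9.43, Cidea of 6.10 and Adipoq of 6.06, and Fabp4, the fatty acid carrier of fat cells, read 5.53, 7.46 and 5.38. The other members, Cfd, Lep, Ucp1 and Plin1, had means of 4.19, 3.94, 3.61 and 3.54. The Y-linked genes Eif2s3y (9.28, 9.61 and 9.29) and Uty (8.17, 8.34 and 8.23) were well above 5 in all 3 arrays, and Xist lay between 2.80 and 3.04.

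**Figure D2:**
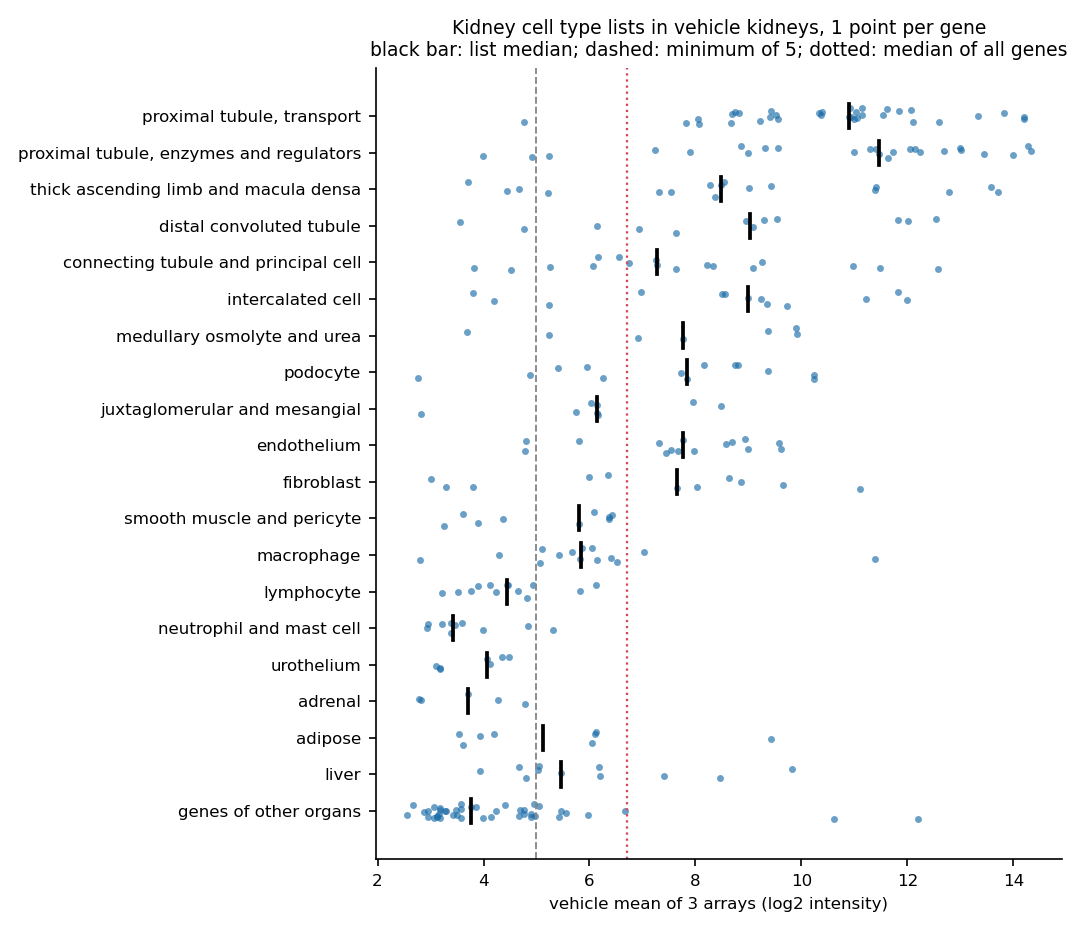
Vehicle mean of 3 arrays in log2 intensity for every measured gene of 20 cell type lists, 1 point per gene. The black bar is the list median, the dashed line is the minimum of 5 and the dotted line is the median of all genes at 6.71. Proximal tubule medians of 10.90 and 11.47 lie highest, and the genes of other organs have a median of 3.77 with Myh1 and Cela1 far to the right.

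The 3 vehicle rats were alike for most genes. The median SD was 0.111 among the 10241 genes at 5 or above, 176 of them (1.72%) spanned at least 1 log2 unit between the lowest and highest array, and 203 had an SD of at least 0.5. An SD of 3 arrays is itself imprecise, with a 95% chi-square interval from 0.521 to 6.28 times its value. Treated groups were more spread, with median SDs of 0.143 in CMS25 and 0.136 in CMS50 and with 365 and 343 of the same genes spanning 1 unit. The 10 measured reference genes had a median SD of 0.082, from 0.021 for Gusb to 0.16 for B2m. The steadiest genes with a mean of at least 8 were Prpf4b, Csnk1g3, Csnk1g2, Ptk2 and Cfap298, a splicing kinase, 2 casein kinase 1 gamma isoforms, focal adhesion kinase and a ciliary gene, with SDs from 0.000947 to 0.0022. In the treated groups the SDs of these genes were larger, from 0.026 (Ptk2) to 0.13 (Csnk1g2) in CMS25 and from 0.032 to 0.19 in CMS50.

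The widely spread genes included transcripts of secreted liver proteins in replicate 1 and a few genes that read below 5 in some rats and above 8 in others. The gene with the highest SD was Dmrtc1c1, a DMRT-like family gene, at 10.95, 3.82 and 10.38. It read 10.45, 4.18 and 10.63 in CMS25 and 7.93, 3.90 and 9.42 in CMS50. In each group replicate 2 was the low array, and the other 6 arrays read 7.93 or more. Scgb1c1, a secretoglobin, read 4.16, 4.52 and 8.43, and of the treated arrays only CMS25 replicate 1, at 7.38, was bright. Cryga, a lens crystallin gene, read 5.70, 8.28 and 4.23, and a second probe set of the gene followed at 4.18, 6.81 and 4.09. Cryga was also bright in CMS25 replicate 3 at 9.30 and CMS50 replicate 2 at 7.73.

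**Figure D3:**
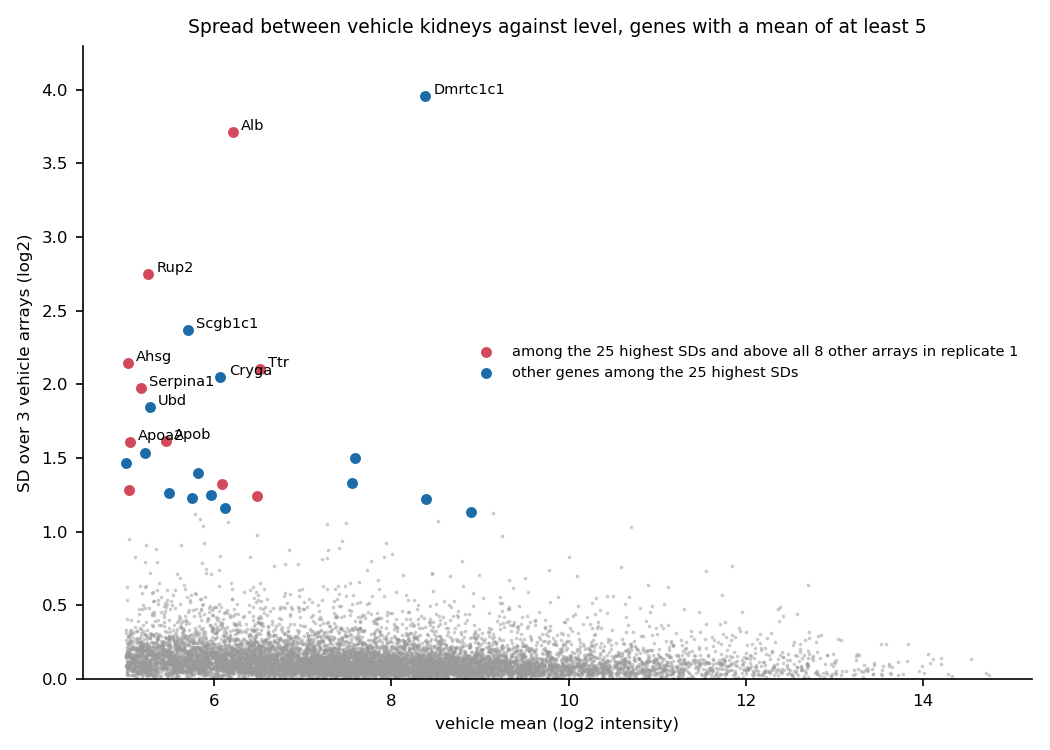
SD over the 3 vehicle arrays (log2) against the vehicle mean (log2 intensity), 1 point per gene with a mean of at least 5. Coloured points are the 25 genes with the highest SD, and the 10 red ones were also at least 1 log2 unit above all 8 other arrays in replicate 1. Most genes lie near the median SD of 0.111, and Dmrtc1c1 and Alb lie highest at 3.96 and 3.71.

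Genes of secreted proteins known from liver were high in replicate 1. Of those named here Alb, Ahsg, Apob and Apoa2 are in the liver list and the others are not. Albumin, Alb, read 10.48, 4.29 and 3.85, and a second probe set of the gene read 12.67, 3.04 and 2.77. Alb exceeded the brightest of the 8 other arrays by 5.19 log2 units. Ahsg (fetuin A) read 7.48, 4.05 and 3.54, Serpina1 (alpha-1 antitrypsin) 7.44, 4.18 and 3.89, and Ttr (transthyretin) 8.94, 5.42 and 5.18. In each case replicates 2 and 3 were close to each other and to the treated arrays. Apob and Apoa2, apolipoproteins that coat lipoprotein particles, read 7.31, 4.43 and 4.62, and 6.88, 4.40 and 3.86. Rup2 read 8.43, 3.76 and 3.59, Hp (haptoglobin) 7.62, 5.45 and 5.21, and Vtn (vitronectin) 6.48, 4.03 and 4.61. Fetub (fetuin B) was less clear-cut at 7.72, 5.23 and 6.50.

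The liver list covers 11 genes and was chosen with earlier results of these data known. Alb, Ahsg, Apob and Apoa2 were named above for their spread, so the counts below describe the list and are no independent check. All 11 were highest in replicate 1, against 32.2% of all genes. In 8 of the 11 it exceeded both other vehicle arrays by at least 0.5, against 1.59% of all genes. Cps1, of the urea cycle, read 7.22, 3.75 and 3.47, and C9, a complement component, read 5.79, 4.15 and 4.08. Apoc3 (9.27, 8.21 and 7.91), Serpinc1 (antithrombin, 10.09, 9.63 and 9.75) and F2 (prothrombin, 7.53, 7.19 and 7.50) were bright in every vehicle kidney. Tat, tyrosine aminotransferase, stayed dim at 4.08, 3.95 and 3.76, although it too is abundant in liver.

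**Figure D4:**
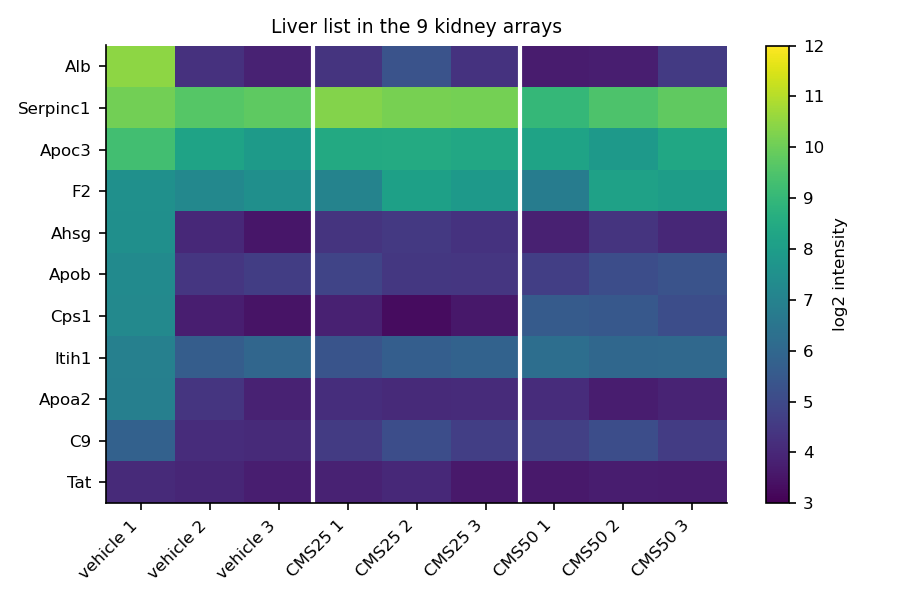
Log2 intensity (colour, from 3 to 12) of the 11 genes of the liver list in all 9 kidney arrays, ordered by their level in vehicle replicate 1, with white lines between groups. Alb reads 10.48 in vehicle replicate 1 and 4.29 and 3.85 in the other vehicle arrays, while Serpinc1, Apoc3 and F2 are bright in every vehicle array.

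The set of 45 genes was defined after the values were seen, and it makes up 0.317% of all genes against 0.0211% in each of the other vehicle arrays. The gap to the next array had a median of 1.93 log2 units, and 42 of the 45 read below 5 in both other vehicle kidneys. Of the liver list 5 of 11 genes were in it, namely Alb, Ahsg, Apoa2, Apob and Cps1. The set also held xenobiotic-metabolising enzymes. Cyp3a2 read 7.65, 3.53 and 3.07, and Cyp2c7 read 7.26, 3.31 and 3.48. These were the cytochrome P450 genes with the highest vehicle SD. In that family 31 of 58 genes were highest in replicate 1, against 32.2% of all genes, and 13 exceeded both other arrays by at least 0.5, against 1.59%. Only 26 of the 58 had a vehicle mean of at least 5, and those of Cyp3a2 and Cyp2c7 were 4.75 and 4.69. Ugt2b, a glucuronosyltransferase counted in the proximal tubule list, read 6.53, 2.60 and 2.84. Fgg, a fibrinogen chain, read 7.24, 3.92 and 3.23, and Fabp1, the liver fatty acid carrier, read 7.11, 3.04 and 2.94. Apoc1, Plg (plasminogen, 6.70, 3.99 and 4.05), Hpx (hemopexin), Orm1, F9 and Tdo2 belonged to it as well. Whether this RNA came from the kidney of that rat or from liver tissue was not tested.

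Start regions of 3 of these genes are shown because they carry GTTAAT, which was searched for below. RefSeq promoter sequence on the GRCr8 assembly was matched by symbol for 34 of the 45 genes. The 150 bases before the annotated start are printed 5′ to 3′ on the strand of the gene, for Alb (chr14:17906980-17907129, minus strand), Plg (chr1:50915407-50915556, minus strand) and Fabp1 (chr4:104749190-104749339, plus strand). Capitals mark GTTAAT or its reverse complement, the letters at either end of a binding site of hepatocyte nuclear factor 1. They begin 82, 67 and 117 bases before the start.
Alb: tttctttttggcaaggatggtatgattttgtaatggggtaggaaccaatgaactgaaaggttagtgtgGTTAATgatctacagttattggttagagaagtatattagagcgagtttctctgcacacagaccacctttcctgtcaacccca
Plg: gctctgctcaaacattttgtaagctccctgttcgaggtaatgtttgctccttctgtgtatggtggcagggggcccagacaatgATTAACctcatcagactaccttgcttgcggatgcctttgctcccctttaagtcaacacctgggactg
Fabp1: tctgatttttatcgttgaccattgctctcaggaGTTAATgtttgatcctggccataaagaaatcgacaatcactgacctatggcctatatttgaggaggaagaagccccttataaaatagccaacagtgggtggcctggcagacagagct
In the 250 bases before the start, on both strands, GTTAAT was present in 6 of the 34 genes (17.6%), in 545 of 11733 array genes with a promoter (4.65%) and in 7.13% of all genes of the promoter table. It was 1 of 8 patterns searched after the values were seen. TATAAA was present in 11 of the 34 (32.4%) against 8.63% of array genes, AGGTCA in 12 (35.3%) against 12.2%, CAAAGTNCA in 5 (14.7%) against 1.16% and TTTAAA in 1 (2.94%) against 9.18%. The other three patterns were spellings of the full site of hepatocyte nuclear factor 1, each of which contains GTTAAT, and they were in 0 of the 34 and in 10 or fewer array genes. A match describes the letters of the window only.

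The other genes of the 25 with the highest SD were of mixed kinds. Mylk3 (myosin light chain kinase, 7.38, 5.42 and 4.67), Tspan1 (a tetraspanin, 9.09, 6.74 and 6.83) and Fgb (fibrinogen beta chain, 6.98, 4.55 and 4.14) were highest in replicate 1. Akr1b10, an aldose reductase relative, read 6.63, 4.14 and 5.69, and Dusp15, a phosphatase, read 7.16, 6.06 and 4.66. Hsd17b1, a steroid dehydrogenase, read 6.50, 4.34 and 6.41 and was low in replicate 2 alone.

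Further genes were highest in replicate 2. Ubd, a ubiquitin-like modifier induced by cytokines, read 4.32, 7.40 and 4.09, and Serpina3n, an acute phase protease inhibitor, read 4.99, 6.48 and 3.55. Lcn2, the injury marker lipocalin 2, read 4.57, 6.10 and 4.98. Spp1 (10.36, 11.86 and 9.89), Clu (8.26, 9.39 and 9.11), Krt19 (8.13, 8.32 and 6.85) and Havcr1 (3.96, 5.58 and 4.95) were highest in replicate 2 too. Clu and Havcr1 had replicate 1 apart on the low side, and Krt19 replicate 3. Of 17 tubular injury genes, 6 were highest in replicate 2 and 9 in replicate 1, against 4629 and 4578 of all 14217 genes. Other acute phase genes did not follow the order of Ubd and Serpina3n. Hp and Fgb were highest in replicate 1, as were the liver genes above, and Saa3 was lowest in replicate 2 (7.11, 5.49 and 6.60). In CMS50 the lowest array was above the highest vehicle array for Ubd, at 9.64, but not for Serpina3n, at 6.06. Enpp6, a choline phosphodiesterase, read 6.91, 9.30 and 6.54. Fabp4 was also highest there. Poteml2 read 8.92, 9.26 and 7.00, with replicate 3 apart on the low side. Pcdh9, a protocadherin, read 7.60, 9.66 and 9.44, with replicate 1 apart on the low side and the 25th highest SD at 1.13. The 26th was Bcl6, a transcriptional repressor, at 8.83, 10.40 and 8.22.

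**Figure D5:**
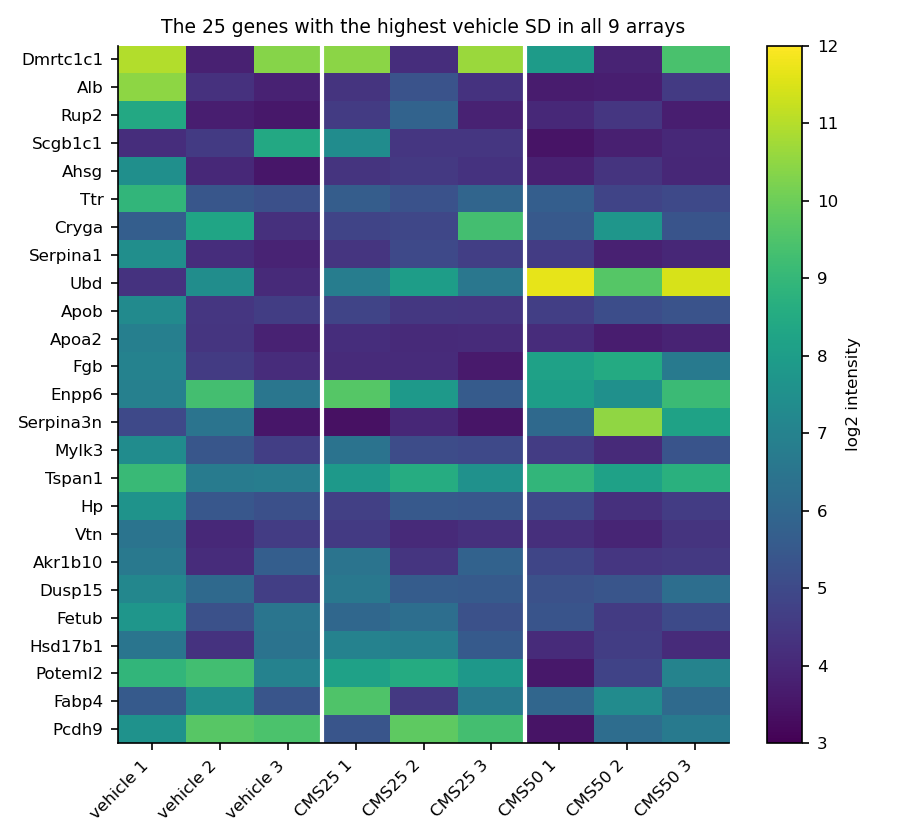
Log2 intensity (colour, from 3 to 12) of the 25 genes with the highest vehicle SD in all 9 arrays, with white lines between groups. Genes such as Alb and Ahsg are bright in vehicle replicate 1 alone, Dmrtc1c1 is dark in replicate 2 of each group, and Ubd is brightest in the CMS50 arrays.

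Of the 50 genes with the highest vehicle SD, 21 had replicate 1 apart on the high side and 4 on the low side. Replicate 2 was apart on the high side for 10 genes and on the low side for 10, and replicate 3 for 3 and 2. Spread in the treated groups was a measure that the ranking did not use. Of the 50 genes, 29 (58.0%) were in the top 5% of SD among the 3 CMS25 arrays and 23 (46.0%) among the 3 CMS50 arrays, where 5.01% of genes fell in either case. The same 50 genes had a median SD of 1.13 in vehicle, 0.562 in CMS25 and 0.398 in CMS50. When replicate 1 was left out, 21 of the 50 remained among the 50 with the highest SD, 28 remained without replicate 2 and 36 without replicate 3. With all arrays, 30 of the 50 were shared at an intensity minimum of 4, 28 at 6 and 25 with none.

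Segment lists also shifted between the vehicle rats, by less than the genes above. These shifts were picked out among 39 lists after the values were seen. Of 13 podocyte genes, 5 read at least 0.5 lower in replicate 2 than in both others, against 0.928% of all genes. They were Nphs1, Synpo (9.55, 8.94 and 9.64), Podxl (8.89, 8.28 and 9.09), Ptpro (8.45, 7.51 and 8.54) and Wt1 (8.12, 7.37 and 8.04), which build or control the foot processes. The adaptor genes Cd2ap and Actn4 differed by less than 0.2 among the same arrays.

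Proximal tubule carriers split by array. Slc5a2, the early-segment glucose transporter SGLT2, read 9.86, 8.82 and 8.98, and Slc34a3, a phosphate cotransporter, read 9.41, 8.02 and 8.56. Slc22a6, the organic anion transporter OAT1, read 11.51, 10.69 and 10.62. These were highest in replicate 1. The reverse order held for Slc7a12 (10.75, 12.19 and 11.70), Slc6a18, an amino acid carrier (10.62, 11.25 and 11.27), and Slc15a2, the peptide transporter of the late proximal tubule (11.50, 12.06 and 11.97). Of all 34 transport genes, 18 were highest in replicate 1, against 32.2% of all genes, and 6 exceeded both other arrays by at least 0.5, against 1.59%. In the thick ascending limb list 10 of 17 were lowest there, against 36.5% of all genes.

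Replicate 3 was highest for 11 of 17 connecting tubule and principal cell genes and for 8 of 13 intercalated cell genes, against 35.2% of all genes. It was also highest for 8 of 13 podocyte genes. Hsd11b2 and Klk1 were nearly level in replicates 1 and 3 and lowest in replicate 2, and Slc26a4 (9.99, 9.26 and 9.93) was highest in replicate 1. Aqp2 (10.72, 10.97 and 11.21) was instead lowest in replicate 1. In the interferon response list 13 of 17 genes were highest in replicate 3. Ifi27 read 8.89, 8.97 and 10.10, and Gbp2, a guanylate-binding protein, read 5.70, 5.87 and 6.50. Cell cycle genes were lowest in replicate 3 for 15 of 19 members, against 30.2% of all genes. Mki67, the proliferation antigen Ki-67, read 5.11, 5.03 and 4.07, and Ccnb2, cyclin B2, read 5.76, 5.78 and 4.88. Only 12 of the 19 had a vehicle mean of at least 5, and that of Mki67 was 4.74. Of the fibroblast list, 9 of 11 were highest in replicate 1, against 32.2% of all genes, and Dpt read 9.32, 8.64 and 8.61. Differences between arrays in which part of the kidney reached the RNA, in cell make-up and in expression per cell cannot be told apart here. The difference between 3′ and 5′ probe sets for actin, a reading of RNA quality, was 2.80, 3.06 and 3.08, and that for GAPDH was 0.51, 0.56 and 0.56, so replicate 1 had the lowest value of both. The part of RNA quality in these shifts was not tested.

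Response and family lists held further genes that differed between the vehicle rats, named by their SD. Egr1, an immediate early transcription factor, read 8.95, 7.31 and 7.74, and Atf3 read 4.19, 4.88 and 4.54. The clock genes Nr1d1 (4.53, 5.64 and 5.40) and Per2 (8.73, 8.18 and 7.65) differed in opposite directions between replicates 1 and 3. The time of tissue collection is not in the labels used here. Errfi1, a glucocorticoid-induced inhibitor of EGF receptor signalling, read 11.36, 10.17 and 11.16. Cyp4a3, a fatty acid hydroxylase of the PPAR-alpha programme, read 13.44, 12.40 and 12.27, while Pdk4, of the same programme, was highest in replicate 3 at 9.82.

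Kallikreins, taken as every symbol that starts with Klk, varied as well, and 8 of 12 were lowest in replicate 2, against 33.2% of all genes. Only 5 of the 12 had a vehicle mean of at least 5. Klk10, Klk1c8 and Klk1c2, counted among the 8, had means of 4.07, 3.60 and 2.89. Klkb1, plasma kallikrein, read 5.88, 4.32 and 5.81, and Klk1c4 read 9.45, 9.27 and 10.63. Among solute carriers, Slc23a3 read 7.32, 9.39 and 8.86, and Slc4a7, a sodium-bicarbonate cotransporter, read 6.92, 8.52 and 6.88. Of glutathione transferases, Gstp1 read 11.84, 12.78 and 12.46, and Gstt1 read 10.10, 9.58 and 9.56. The MHC genes with the highest SD were RT1-CE12 at 10.41, 11.26 and 11.09 and RT1-DMb at 8.28, 7.62 and 7.43. In the cholesterol synthesis list Lss and Dhcr7 had the highest SDs, at 0.38 and 0.28, and in the heat shock list Cryab and Hsph1, at 0.30 and 0.24. Oxidative phosphorylation and ribosomal protein genes had median SDs of 0.0636 and 0.0645, against 0.116 for all genes. Their most spread members were the minor forms Cox6b2 (0.30), Cox8b (0.29), Rps4y2 (0.37) and Rpl26l1 (0.27).

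The vehicle kidneys serve as controls for both doses, which therefore share them. At 25 mg/kg limma called 0 of 10337 genes at an adjusted p under 0.05, and 604 (5.84%) had an unadjusted p under 0.05. At 50 mg/kg it called 2028 genes higher (19.6%) and 1183 lower (11.4%), 3211 (31.1%) in all, and the median log2 change of all genes was 0.05. Without vehicle replicate 1 the total at 50 mg/kg was 2154, 20.8% of genes, with 13.0% higher and 7.86% lower. Leaving out vehicle replicate 2 gave 1852 calls, and leaving out CMS50 replicate 1 or 2 gave 1711 or 1687.

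Most nephron lists had more members called lower than higher at 50 mg/kg, where 11.4% of all genes were called lower and 19.6% higher. In the proximal tubule transport list 6 of 33 tested genes rose and 11 fell (median log2 change -0.19), and in the enzyme list 1 of 23 rose and 11 fell (-0.43). Slco1a1, an organic anion transporter, fell by 3.60 on the log2 scale (SE 0.732, adjusted p = 0.0079), while Slc2a2, the basolateral glucose transporter, rose by 2.15 (SE 0.271, adjusted p = 0.0021). Among the enzymes and regulators, Acmsd fell by 1.72 and Napsa rose by 0.74. In the thick ascending limb list 8 of 13 fell and 1 rose (median -0.92), with Egf down from 13.58 to 11.54 (adjusted p = 0.0037) and Ptger3 up by 0.93. Without vehicle replicate 1, 8 transport genes, 7 enzyme genes and 6 thick ascending limb genes fell, against 7.86% of all genes.

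Of intercalated cell genes 6 of 11 fell (median -0.73), of connecting tubule and principal cell genes 3 of 15 (-0.33) and of distal convoluted tubule genes 2 of 10 (-0.28), with none called higher. Among all genes 11.4% were called lower and 19.6% higher. Klk1 fell by 3.27, Slc4a1, the anion exchanger AE1, by 1.67 and Stk39, the kinase SPAK, by 0.91. In the podocyte list 2 of 11 rose and 3 fell. Wt1 fell by 1.36 and Cd2ap rose by 0.69. Of 13 endothelial genes 4 fell, with Vwf down by 1.57, and 1 rose, Egfl7 by 0.29. Of 6 medullary osmolyte genes, Slc5a3 fell by 1.25, and 2 rose, among them Akr1b1 by 0.85. Over 19 alternative settings each, the call ended in 12 for Egfl7, 6 for Akr1b1, 4 for Ptger3, 3 for Stk39 and 1 for Acmsd, with largest adjusted p-values of 0.30, 0.14, 0.069, 0.067 and 0.052. Without vehicle replicate 1, 2 intercalated cell genes were called lower, against 7.86% of all genes in that fit. Neither osmolyte gene was then called higher, against 13.0% of all genes.

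Other measures moved at 50 mg/kg too. Of 13 macrophage genes 12 rose, against 19.6% of all genes. The mean level of that list was 6.05, 5.90 and 5.95 in vehicle and 7.32, 7.86 and 6.99 in CMS50. Of 8 fibroblast genes 6 rose, against the same share of all genes. The mean level of the fibroblast list was 7.15, 6.83 and 6.86 in vehicle and 7.78, 8.45 and 7.67 in CMS50. The 3′ minus 5′ difference of actin was 3.63, 3.63 and 3.48 in CMS50, above all vehicle arrays, and that of GAPDH was 0.89, 0.77 and 0.80. Their part in the lower readings of nephron genes was not tested.

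The dose results of the widely spread genes are given with and without replicate 1 as a description. The genes were chosen by vehicle SD, so where replicate 1 set that SD its removal must move the vehicle mean and narrow the error. Of the 50 genes with the highest vehicle SD, 41 were tested and 11 (26.8%) were called at 50 mg/kg, near the share of all genes. Without vehicle replicate 1, 15 (36.6%) were called, against 20.8% of all genes in that fit, and 9 were called in both. The calls of Serpina3n and Poteml2 were lost. The log2 change of Fgb at 50 mg/kg was 2.55 (adjusted p = 0.024) with all arrays and 3.43 (adjusted p = 0.0090) without replicate 1. That of Tspan1 was 1.05 (adjusted p = 0.19) and 1.81 (adjusted p = 0.012). Hao1, glycolate oxidase, went from 0.71 (adjusted p = 0.19) to 1.25 (adjusted p = 0.0090), and Ambp, the precursor of alpha-1-microglobulin, from 0.51 (adjusted p = 0.42) to 1.13 (adjusted p = 0.021). For Ttr the change was -1.35 (adjusted p = 0.24) with all arrays and -0.14 (adjusted p = 0.75) without. The genes of this paragraph other than Fgb, Tspan1 and Ttr were chosen after their values were seen.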

How the data were processed

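Gene expression was measured in kidneys of 9 rats, 3 per dose. Per the submitters' processing notes, the authors deposited log2 values made with RMA in Expression Console of Affymetrix (version not given in the sources used here). This method corrects background, equalises array distributions and summarises probes, so a shift of all genes cannot be seen and dim probe sets are compressed. Values were used as deposited. The number of arrays limits the precision.

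The platform annotation gave 1 symbol for 20826 of 31042 non-control probe sets, several for 436 and none for 9780. Where a gene had more than 1 probe set (4525 of 14217 genes), the one with the highest mean of all 9 arrays stood for it. Members and gene lists were chosen with earlier results of these data known. Named genes were the 25 brightest, the 25 with the highest SD at a mean of at least 5, the 4 brightest members of each cell type list and, in lists of over 8, the 2 dimmest, the 2 most spread members of each response list, the 5 steadiest with a mean of at least 8, the extremes of the reference genes, and the largest called rise and fall per nephron list. Others were chosen after their values were seen.

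Groups were compared with limma 3.58.1 (R 4.3.3; functions lmFit and eBayes on all 3 groups, genes with a mean of at least 5 over 9 arrays), with Benjamini-Hochberg adjustment and a threshold of 0.05, after the fit was tested on simulated data. SDs and counts used Python 3.11.15 with pandas 2.3.3. Alternatives changed the scaling, the probe set rule, the intensity minimum, the measure of spread, the variance model and the arrays. Labels give no batch.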

Additional observations from a re-analysis of the deposited data

How the results depend on the processing

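The count of genes with an SD of at least 0.5 was 134 at an intensity minimum of 6 against 203 at 5, and with no minimum 15 of the 50 highest-spread genes were in the top 5% of SD in CMS50, against 23. Leaving out 1 array gave 10234 to 10272 genes at 5 or above, 206 to 302 with an SD of at least 0.5, and 19 to 30 highly spread genes in the top 5% in CMS25 and 16 to 23 in CMS50. The 19 was without CMS25 replicate 2. Calls at 25 mg/kg were 0 throughout, and calls at 50 mg/kg ranged from 1687 to 3546. The cause was not tested beyond the smaller number of arrays. With the replicate number as a block, 2865 genes were called at 50 mg/kg and 0 at 25 mg/kg. Deviations of same-numbered arrays had correlations of -0.18 to 0.26, and those of differently numbered arrays -0.23 to 0.22. Pairing by number was thus not detected, but with 3 arrays per group these values cannot show that it was absent. Of 432 values for 23 called genes over all alternatives, 379 kept direction and call, 53 kept direction and lost the call, and 0 changed sign. Of the 25 brightest genes, 21 to 25 were shared with each alternative, but of the 50 most spread only 21 to 36 without 1 vehicle array and 25 to 30 at another intensity minimum.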
